A study of Mus musculus with 6 samples.

Results

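The 10 genes described here, Kdm2a, Kdm2b, Kdm3a, Kdm3b, Kdm4a, Kdm4b, Kdm4c, Kdm5b, Kdm6a and Kdm6b, code for JmjC histone lysine demethylases. They were found by gene symbol among the 55335 genes of the deposited count table, and each of the 10 was present and passed the filter on low counts that left 15881 genes for testing. The libraries came from MEFs, cultured mouse embryonic fibroblasts of WT genotype. Confine cells had been seeded on a transwell membrane with 3 μm pores and were collected after 15 h on the far side, and Ctrl cells were the parental MEFs, which received no other treatment that the labels name. The question was which transcripts differ in cells that have squeezed through narrow pores. The labels do not say whether the replicates were separate cultures, so p-values measure only the spread between these libraries, which may be technical. No cells grown on a membrane without passing through it were compared here, so passage through the pores and culture on the membrane cannot be told apart.

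JmjC demethylases remove methyl groups from histone lysines with iron, molecular oxygen and 2-oxoglutarate, so their activity depends on oxygen and on metabolism. Subfamilies differ in the lysine they act on: KDM2 proteins act on lysine 36 of histone H3, KDM3 proteins on lysine 9, KDM4 proteins on lysines 9 and 36, KDM5 proteins on lysine 4 and KDM6 proteins on lysine 27. Kdm3a and Kdm4b are well-known transcriptional targets of the hypoxia-inducible factor HIF-1, which binds a core motif with the letters ACGTG or GCGTG. In fibroblasts these enzymes are known for roles in growth, senescence and inflammatory gene expression.

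The columns of Confine replicates 1 and 2 held the same count in all 55335 genes, whereas other pairs of columns of the same group were equal in 32181 to 32390 genes, so these columns were counted as 1 library. It is called Confine 1/2 here, and the comparison had 3 Ctrl and 2 Confine libraries. Total counts were 22287210 to 27853805 in Ctrl and 27290138 to 32537550 in Confine. Levels are read counts scaled for library size and composition by the TMM method and given as normalized CPM, and 3 counts, the limit that a count of 0 allows, corresponded to 0.101 to 0.128 normalized CPM. Such limits reflect counting alone, because the reads carry no molecular identifiers and copies of 1 molecule can be counted repeatedly.

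Promoter windows are shown because they hold, or lack, the core letters of the HIF-1 motif just before the start sites of members that behaved differently between Confine and Ctrl. RefSeq (GRCm38.p6) windows of 300 bases, from 250 before to 50 after a start site, were used for 6 of the 10 members, 12 windows in all. Kdm2a, Kdm3b, Kdm4b and Kdm6b had no entry. ACGTG and GCGTG were searched on both strands, and CACGTG, which reads alike on both, counts as 2 overlapping matches. Of 32817 promoter windows of this length, with no chromosome left out, 19.6% held ACGTG, 32.4% held GCGTG and 43.8% held either. Of the 12 member windows, 8 held either, from 5 of the 6 genes. Member windows had 40.0% to 81.7% G and C, against a median of 52.7% over all windows. Some Kdm2b windows overlap and share matches, and a share per gene was not computed. Enrichment of the letters in the members was not tested. The windows below are read 5′ to 3′ along the gene, with matches on either strand in capitals. They belong to Kdm3a (chr6:71632868-71633167, minus strand), Kdm5b (chr1:134559928-134560227, plus strand), Kdm6a (chrX:18162325-18162624, plus strand) and Kdm4a (chr4:118179994-118180293, minus strand).
Kdm3a: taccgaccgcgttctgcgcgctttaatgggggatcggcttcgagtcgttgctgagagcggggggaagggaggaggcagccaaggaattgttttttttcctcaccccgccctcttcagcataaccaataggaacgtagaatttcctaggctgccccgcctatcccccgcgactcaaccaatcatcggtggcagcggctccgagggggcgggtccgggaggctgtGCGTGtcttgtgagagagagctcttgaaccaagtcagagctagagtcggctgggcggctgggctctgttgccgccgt
Kdm5b: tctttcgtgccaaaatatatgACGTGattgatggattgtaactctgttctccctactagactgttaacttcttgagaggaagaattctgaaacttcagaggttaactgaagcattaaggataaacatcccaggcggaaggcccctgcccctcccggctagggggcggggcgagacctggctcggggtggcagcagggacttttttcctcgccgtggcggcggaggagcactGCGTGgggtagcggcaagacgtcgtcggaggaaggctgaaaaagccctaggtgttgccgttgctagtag
Kdm6a: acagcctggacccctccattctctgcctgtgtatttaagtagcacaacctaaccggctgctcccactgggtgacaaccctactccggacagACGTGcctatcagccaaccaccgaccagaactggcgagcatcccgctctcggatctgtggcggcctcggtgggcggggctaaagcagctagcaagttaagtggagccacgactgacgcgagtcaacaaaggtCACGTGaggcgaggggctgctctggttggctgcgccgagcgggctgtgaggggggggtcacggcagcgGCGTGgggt
Kdm4a: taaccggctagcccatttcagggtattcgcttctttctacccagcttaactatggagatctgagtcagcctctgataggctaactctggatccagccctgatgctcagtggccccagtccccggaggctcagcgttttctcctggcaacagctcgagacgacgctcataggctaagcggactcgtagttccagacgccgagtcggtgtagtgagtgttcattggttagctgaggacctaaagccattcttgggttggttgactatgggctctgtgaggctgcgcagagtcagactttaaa

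In the Kdm3a window GCGTG began 27 bases before the start site, and the windows at the other Kdm3a start sites held no match. In the Kdm5b window the matches began 229 and 19 bases before the start site. The Kdm6a window held 4 matches, among them the overlapping pair of CACGTG, and the Kdm4a window held none. Kdm3a and Kdm5b were upregulated in Confine, Kdm6a differed by less than the spread between libraries and Kdm4a had lower values in Confine. Among windows not shown, 1 of Kdm4c held 6 matches and those of Kdm2b held 1 or 3 each, and neither gene was called. Members with these letters were thus found with and without a change in transcript level. A match describes the letters of a window and is not a binding site.

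Between Confine and Ctrl, 5 of the 10 members, Kdm2a, Kdm3a, Kdm4b, Kdm5b and Kdm6b, were upregulated at an adjusted p under 0.05 in edgeR's quasi-likelihood test (Benjamini-Hochberg, over all tested genes), and 0 were downregulated. Among the 15881 tested genes, 12.8% were upregulated and 10.2% downregulated by this rule. With a log2 fold change above 1.5 required as well, 3 members remained, Kdm4b, Kdm5b and Kdm6b, and 4.89% of tested genes passed in that direction. Kdm4b was the 1 member that passed this cutoff without Ctrl replicate 1, without Confine 1/2 and with scaling by library size alone, while Kdm3a passed too, making 4, without Ctrl replicate 2 or Confine replicate 3. In 7 members each Confine library was above each Ctrl library, as in 25.9% of tested genes, and in 1 member, Kdm4a, each Confine library was below, as in 23.6%. The median log2 fold change was 0.56 over the members and -0.0021 over the tested genes. At an unadjusted p under 0.05, 1 member, Kdm4a, was lower, and DESeq2 called 0 members downregulated.

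**Figure D1:**
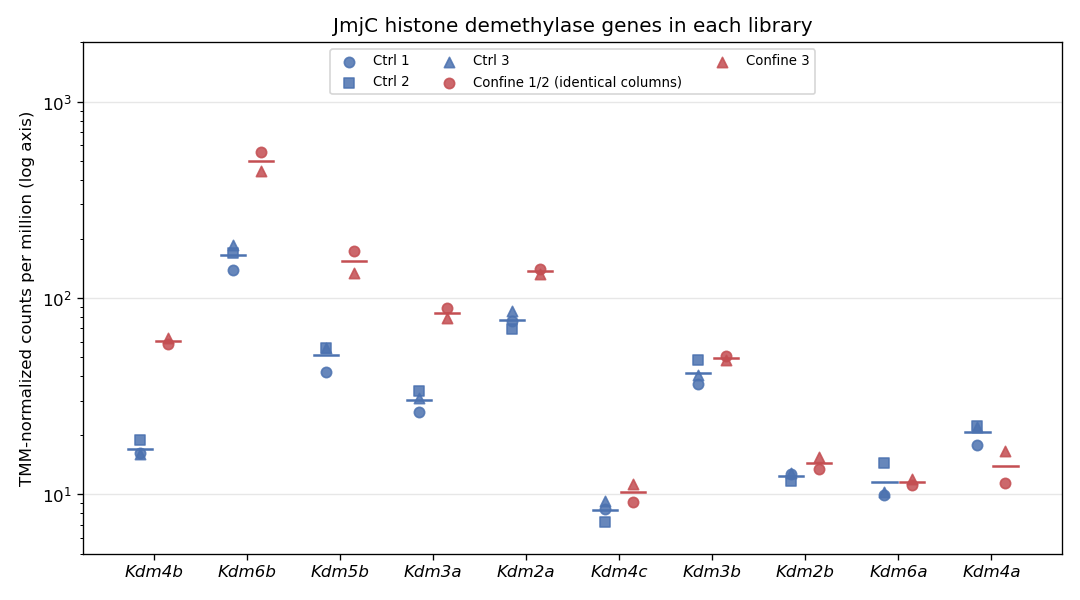
Normalized CPM (log axis) of each of the 10 genes in each library, ordered from the highest to the lowest log2 fold change, with Ctrl libraries in blue, Confine libraries in red and horizontal lines at the group means. The red points of Kdm4b, Kdm6b, Kdm5b, Kdm3a and Kdm2a lie clear above the blue ones, those of Kdm4c and Kdm6a overlap with them, and those of Kdm4a lie below.

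Kdm6b, a demethylase of trimethylated lysine 27 of histone H3 known as an inducible enzyme of inflammatory responses, was the most abundant member per length in both groups. The Ctrl libraries held 4034, 4472 and 4364 Kdm6b counts and the Confine libraries 16331 and 11187, or 139.4, 169.0 and 185.6 against 551.7 and 444.2 normalized CPM. Both Confine libraries lay far above the highest Ctrl library. The log2 fold change was 1.60 (SE 0.19, 95% interval 1.20 to 1.99, adjusted p = 4.72e-06), a 3.02-fold higher level. Its paralog Kdm6a, the X-linked enzyme for the same lysine and a subunit of the MLL3 and MLL4 complexes, was low in both groups. For Kdm6a, 289, 383 and 241 counts were found in Ctrl against 331 and 300 in Confine, or 11.6 ± 2.52 (SD, n = 3) against 11.5 ± 0.515 normalized CPM (SD, n = 2). The Confine values lay between the Ctrl values, and the interval of the log2 fold change, -0.48 to 0.47, leaves room for changes of that size in either direction (adjusted p = 0.994). Kdm6b (chr11:69398508-69413675, minus strand, GRCm38) shares 286 exon bases with the antisense gene Kdm6bos, whose mean was 2.0 counts per library. Kdm6a lies at chrX:18162575-18279936 on the plus strand.

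Kdm4b, which removes methyl groups from lysine 9 of histone H3, had the largest log2 fold change of the 10 members. Kdm4b reads numbered 469, 500 and 379 in Ctrl against 1716 and 1568 after confinement, or 16.2, 18.9 and 16.1 against 58.0 and 62.3 normalized CPM. The spread within each group was small beside the gap between them. The log2 fold change was 1.82 (SE 0.18, 95% interval 1.44 to 2.20, adjusted p = 7.54e-07), a 3.52-fold higher level, and 96.2% of tested genes had a lower fold change. Its paralog Kdm4a was lower in both Confine libraries than in any Ctrl library, with 518, 588 and 517 counts in Ctrl against 338 and 418 in Confine, or 17.9, 22.2 and 22.0 against 11.4 and 16.6 normalized CPM. Its groups did not overlap, but the log2 fold change of -0.56 (SE 0.22, 95% interval -1.02 to -0.11) missed the threshold (adjusted p = 0.0690). The adjusted p of Kdm4a was 0.0141 when libraries were scaled by their size alone, which shifts the median of all tested genes to -0.21. Its log2 fold change was -0.32 without Confine 1/2 (adjusted p = 0.512) and -0.86 without Confine replicate 3 (adjusted p = 0.0615). Kdm4c, which acts on the same lysines, had 8.31 ± 1.01 (SD, n = 3) normalized CPM in Ctrl and 10.2 ± 1.58 (SD, n = 2) in Confine, with overlapping groups (log2 fold change 0.30, 95% interval -0.17 to 0.77, adjusted p = 0.375). Kdm4b lies at chr17:56326062-56402870 (plus strand), Kdm4a at chr4:118136957-118180043 (minus strand) and Kdm4c at chr4:74242497-74405860 (plus strand). No exon of these genes overlaps an exon of another gene in GENCODE M21.

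Kdm3a and Kdm3b remove mono- and dimethylation from lysine 9 of histone H3. Kdm3a had 764, 889 and 731 counts in the Ctrl libraries against 2640 and 1995 in Confine, or 26.4, 33.6 and 31.1 against 89.2 and 79.2 normalized CPM. Both Confine values lay far above the highest Ctrl value. The log2 fold change of Kdm3a was 1.47 (SE 0.18, 95% interval 1.09 to 1.86, adjusted p = 9.33e-06), a 2.77-fold higher level just under the stricter cutoff of 1.5. Kdm3b had 36.5, 48.1 and 40.5 normalized CPM in Ctrl and 50.7 and 48.6 in Confine. Its groups did not overlap, but the highest Ctrl value came close to the lower Confine value, and the log2 fold change of 0.25 (SE 0.19, 95% interval -0.14 to 0.64) did not pass the test (adjusted p = 0.368). Kdm3a lies at chr6:71588972-71632990 on the minus strand and Kdm3b at chr18:34777047-34838660 on the plus strand. Exons of Kdm3b share 3468 bases with Gm26538, a lincRNA gene on the opposite strand. Gm26538 was not among the genes of the deposited count table, so it has no count of its own. The sources used here do not say whether counting used the strand, and without it reads from such a pair cannot be told apart.

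Kdm5b, which removes di- and trimethylation from lysine 4 of histone H3, a mark of active promoters, was the only KDM5 gene among the 10. Reads on Kdm5b numbered 1209, 1470 and 1315 in Ctrl against 5123 and 3372 in Confine, or 41.8, 55.6 and 55.9 against 173.1 and 133.9 normalized CPM. The Confine libraries differed more from each other for Kdm5b than for Kdm3a or Kdm4b, and both stayed above Ctrl. The log2 fold change was 1.59 (SE 0.19, 95% interval 1.18 to 2.00, adjusted p = 7.73e-06), a 3.01-fold higher level. Kdm5b lies at chr1:134560171-134635285 on the plus strand.

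Kdm2a and Kdm2b bind unmethylated CpG islands and remove methylation from lysine 36 of histone H3, and Kdm2b also brings a variant Polycomb complex to these islands. Reads on Kdm2a numbered 2210, 1844 and 2027 in Ctrl against 4166 and 3327 in Confine, or 76.3, 69.7 and 86.2 against 140.7 and 132.1 normalized CPM. Kdm2a had the smallest change of the 5 upregulated members, with a log2 fold change of 0.82 (SE 0.18, 95% interval 0.44 to 1.19, adjusted p = 0.00227), a 1.76-fold higher level. Kdm2b had 12.7, 11.6 and 12.8 normalized CPM in Ctrl and 13.4 and 15.5 in Confine, with groups that did not overlap and a log2 fold change of 0.22 (SE 0.20, 95% interval -0.20 to 0.65) that did not pass the test (adjusted p = 0.477). Kdm2a lies at chr19:4314419-4398285 and Kdm2b at chr5:122870665-122989823, both on the minus strand. Kdm2b is the less certain measurement, since its exons share 627 bases with Rnf34 on the other strand (a mean of 612 counts per library, where Kdm2b had 353), and 615 bases with 100% identity are also found in Gm12397.

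**Figure D2:**
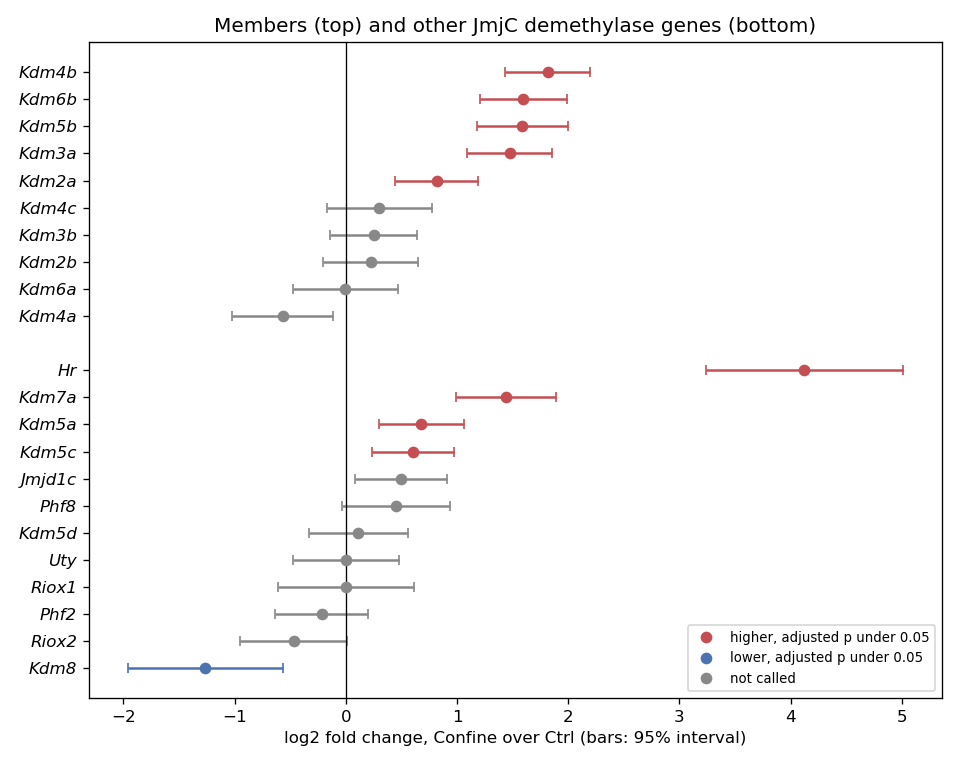
Log2 fold change of Confine over Ctrl (x axis) with its 95% interval for the 10 members (top) and 12 other JmjC demethylase genes that were tested (bottom), with genes called higher in red, lower in blue and not called in grey. Kdm4b, Kdm6b, Kdm5b, Kdm3a and Kdm2a have intervals above 0, and Hr has the largest value, 4.12.

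Within 4 subfamilies, KDM2, KDM3, KDM4 and KDM6, 1 paralog was upregulated and another did not pass the test. The ratio between paralogs was compared within each library, where the scaling between libraries has no part. For pairs with a called paralog, the ratios use the same counts as the calls and are not separate evidence. In the pair of Kdm4c and Kdm4a neither gene was called. Levels for these ratios are counts per kb of exon, and another length would move the ratios of both groups alike. The ratio of Kdm4b to Kdm4a was 1.07, 1.00 and 0.866 in Ctrl and 5.997 and 4.43 in Confine, which is 5.28-fold higher (log2 difference 2.40). In Ctrl the transcripts were thus near equal per length, and in Confine Kdm4b was several times more abundant. The ratio of Kdm3a to Kdm3b was 1.24, 1.20 and 1.31 in Ctrl and 3.02 and 2.79 in Confine (log2 difference 1.22). The ratio of Kdm6b to Kdm6a was 16.8, 14.1 and 21.8 in Ctrl and 59.5 and 45.0 in Confine (log2 difference 1.58). The ratio of Kdm4c to Kdm4a was 0.466, 0.324 and 0.419 in Ctrl and 0.793 and 0.679 in Confine (log2 difference 0.88). Kdm2b to Kdm2a was the 1 ratio of the 5 that was lower in Confine, at 0.221, 0.222 and 0.197 in Ctrl and 0.127 and 0.156 in Confine (log2 difference -0.60). The groups did not overlap in any of the 5 ratios. Each ratio had p = 0.1 by a two-sided exact permutation test, also after Benjamini-Hochberg adjustment. This is the smallest p that 3 against 2 libraries allow. Among single tested genes, groups did not overlap in 25.9% with Confine higher and in 23.6% with Confine lower. The share over all gene pairs was not computed.

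**Figure D3:**
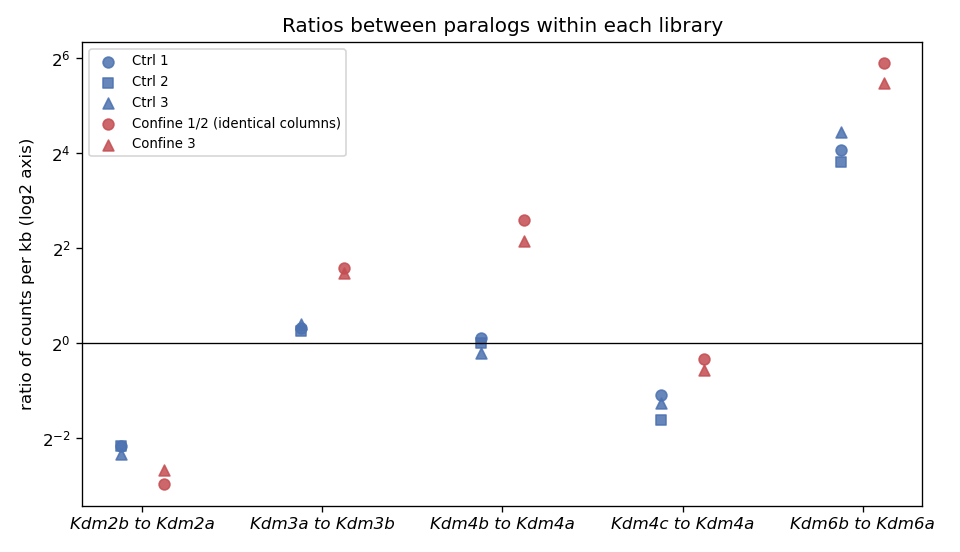
Ratio of the counts per kb of 2 paralogs (log2 axis) in each library, with Ctrl in blue and Confine in red and a line at a ratio of 1. Kdm4b to Kdm4a is near 1 in the Ctrl libraries and at 5.997 and 4.43 in the Confine libraries, and Kdm2b to Kdm2a is the 1 ratio that is lower in Confine.

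Compared per length, the order of the members also differed between the groups. In Ctrl, Kdm6b stood first at 23.7 ± 3.4 normalized CPM per kb (SD, n = 3), followed by Kdm2a at 5.36 ± 0.58. Kdm3a (3.69), Kdm4a (3.58), Kdm4b (3.49), Kdm5b (3.09) and Kdm3b (2.96) then formed a run in which neighbours lay within their spread. Kdm4c (1.43), Kdm6a (1.38) and Kdm2b (1.14) were lowest, and neighbours among them also lay within their spread. In Confine, Kdm6b was at 71.6 ± 11 (SD, n = 2) and Kdm4b, at 12.3 ± 0.62, stood next. Kdm3a (10.2), Kdm2a (9.44) and Kdm5b (9.27) followed without separating beyond their spread. Kdm3b (3.52) and Kdm4a (2.42) came below these, and Kdm4c (1.76), Kdm6a (1.38) and Kdm2b (1.33) were again lowest. With the longest transcript as the length the order was another, with Kdm4b (13.1) in Confine after Kdm5b (17.6), Kdm3a (17.4) and Kdm2a (15.9), and Kdm3b (6.55) in Ctrl next after Kdm2a (9.02), while Kdm6b stood first with both lengths. In Confine, with all exons as the length, Kdm6a and Kdm2b lay within their spread of each other. Kdm4a (1.97 and 2.87) lay above Kdm4c (1.57 and 1.95) in Confine, though the nearest values almost met.

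Summed over the 10 genes, the level per kb was 43.9, 51.7 and 53.8 in Ctrl and 131.9 and 114.6 in Confine. Kdm6b made up 45.7%, 47.0% and 49.6% of this sum in Ctrl and 60.1% and 55.7% in Confine. With the longest transcript in place of all exons as the length, its mean share was 36.9% in Ctrl and 47.6% in Confine, so the size of the share depends on the length used. Without Kdm6b the sum was 23.8, 27.4 and 27.1 in Ctrl and 52.6 and 50.7 in Confine. The 5 members that were not called summed to 9.49, 11.3 and 10.7 in Ctrl and 9.70 and 11.1 in Confine. They were chosen for the lack of a call, so the overlap of this sum is no separate evidence. The sum also joins opposite differences. The mean of Kdm4a was lower in Confine (3.58 against 2.42), those of Kdm3b, Kdm4c and Kdm2b were higher, and Kdm6a was near equal.

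**Figure D4:**
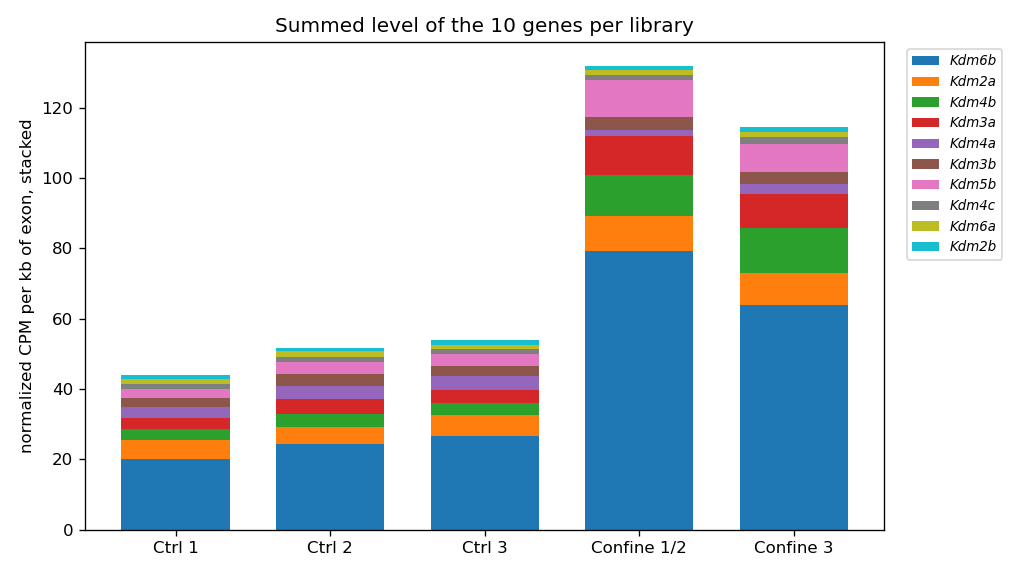
Normalized CPM per kb of exon of the 10 genes, stacked, in each of the 5 libraries. The stacks reach 43.9 to 53.8 in Ctrl and 114.6 to 131.9 in Confine, and Kdm6b is the largest segment in each.

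Of 13 other JmjC demethylase genes, 12 were tested, 4 were upregulated and 1 downregulated, with a median log2 fold change of 0.28. With 1 library left out, 2 to 5 were called higher and 0 to 2 lower. Hr, the hairless gene of a lysine 9 demethylase and nuclear receptor corepressor, rose from 21, 7 and 10 counts in Ctrl to 146 and 300 in Confine (log2 fold change 4.12, 95% interval 3.24 to 5.01, adjusted p = 1.04e-06). Kdm7a, an enzyme for lysines 9 and 27, had a log2 fold change of 1.44 (adjusted p = 5.97e-05). The KDM5 paralogs Kdm5a and Kdm5c had smaller changes than Kdm5b, with log2 fold changes of 0.68 (adjusted p = 0.0105) and 0.60 (adjusted p = 0.0168). Both lost their call with libraries scaled by size alone, and without Ctrl replicate 1, Confine 1/2 or Confine replicate 3, when the adjusted p lay between 0.0637 and 0.126. Kdm8 was downregulated (log2 fold change -1.26, adjusted p = 0.00920), but not without Confine 1/2 (adjusted p = 0.0555) or Confine replicate 3 (adjusted p = 0.0740).

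Of 8 genes of JmjC proteins with another or no known demethylase activity, 2 were upregulated and 1 downregulated, with a median of -0.21. Jmjd6, a lysyl hydroxylase that acts on splicing factors, had a log2 fold change of 1.69 (adjusted p = 1.35e-06). Jarid2, a subunit of the Polycomb complex PRC2 without demethylase activity, had 1.49 (adjusted p = 2.84e-05). Hspbap1 had -0.67 (adjusted p = 0.0307), which was lost without Ctrl replicate 1, Confine 1/2 or Confine replicate 3 (adjusted p 0.114, 0.0851 and 0.263). Among the TET enzymes, which oxidise methylcytosine in DNA with the same cofactors, 2 of 3 were upregulated, with log2 fold changes of 1.94 for Tet2 (adjusted p = 6.58e-07) and 1.59 for Tet1 (adjusted p = 2.22e-05). Neither of the 2 demethylases that use FAD instead, Kdm1a and Kdm1b, was called by edgeR or DESeq2, nor had an unadjusted p under 0.05 by edgeR.

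Genes that write the same histone marks gave few calls, none of them upward with TMM scaling and the 5 libraries. None of 6 methyltransferase genes for lysine 4 and none of 5 for lysine 36 was called by edgeR or DESeq2, and 0 of these genes had an unadjusted p under 0.05 by edgeR, with medians of -0.033 and -0.028. Of 6 genes for lysine 9, 2 were downregulated, Suv39h1 (log2 fold change -0.97, adjusted p = 0.00155) and Suv39h2 (-1.58, adjusted p = 0.00269), the latter with an adjusted p of 0.0545 without Confine 1/2. Of the 4 genes of the lysine 27 complex PRC2, the catalytic subunit gene Ezh2 was downregulated (-0.76, adjusted p = 0.00435, and 0.0839 without Confine 1/2). The PRC2 gene Ezh1, named after its values were seen, had higher values in both Confine libraries and was not called (0.56, adjusted p = 0.0562), and 1 of these 4 genes was called higher without Ctrl replicate 2 or with the identical columns counted as 2 samples. Without Confine replicate 3, 3 genes for lysine 9 were called lower. Whether demethylase genes moved more often than writer genes was not tested.

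**Figure D5:**
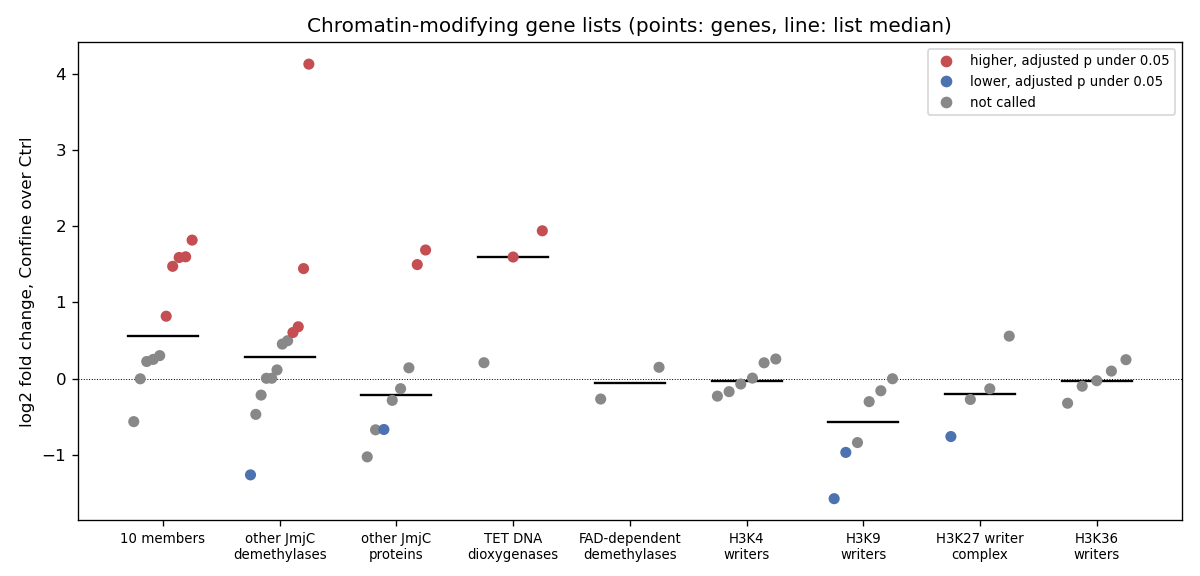
Log2 fold change of Confine over Ctrl (y axis) of each tested gene in 9 lists of chromatin genes, with genes called higher in red, lower in blue and not called in grey, and black lines at list medians. The red points lie in the lists of members, other JmjC genes and TET genes, which also hold grey points, and Kdm8 and Hspbap1 are blue. The FAD list is grey, and the writer lists are grey apart from Suv39h1, Suv39h2 and Ezh2 in blue.

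Genes that report hypoxia and the cell cycle moved between the same libraries. Of 10 hypoxia reporter genes, 9 were tested and all 9 were upregulated, and their summed level was 218 to 232 normalized CPM in Ctrl and 1967 to 2313 in Confine. Without Confine replicate 3, 8 of the 9 were called. Car9, a carbonic anhydrase, had a log2 fold change of 5.59 (adjusted p = 2.49e-11), Ankrd37 had 5.11 (adjusted p = 4.50e-11), Ndrg1 had 4.21 (adjusted p = 7.82e-11) and Bnip3, a mitophagy receptor, had 3.46 (adjusted p = 5.06e-10). These values exceed that of Kdm4b, the member with the largest change. The 8 cell cycle genes were all downregulated, summing to 1463 to 1652 in Ctrl and 564 to 678 in Confine, among them Mcm2 (-1.95, adjusted p = 2.11e-06), Ccnb1 (-1.76, adjusted p = 2.77e-05), Cdk1 (-1.31, adjusted p = 3.91e-05) and Ccna2 (-1.69, adjusted p = 5.37e-05). The part of oxygen supply or of fewer dividing cells in the members' values was not tested.

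Fibroblast markers were abundant in each library and 5 of the 8 tested were higher in Confine, with sums of 8745 to 9602 normalized CPM in Ctrl and 15732 to 16509.5 in Confine (4 higher without Ctrl replicate 3 and 6 without Confine replicate 3). Col3a1 had a log2 fold change of 2.21 (adjusted p = 5.78e-08), Fn1 1.04 (adjusted p = 0.000309), Vim 0.97 (adjusted p = 0.000351) and Pdgfra 0.84 (adjusted p = 0.00212). Pdgfrb (-0.36, adjusted p = 0.194) and S100a4 (-0.28, adjusted p = 0.346), named after their values were seen, were not called but had lower values in both Confine libraries than in any Ctrl library. The markers Thy1 (0, 0 and 2 counts in Ctrl, 0 and 0 in Confine) and Dcn (2, 0 and 0, then 27 and 3) were near 0. The 8 leukocyte markers summed to 7.23 to 8.39 in Ctrl and 18.3 to 25.9 in Confine, with Cd68 (2.67, adjusted p = 3.94e-07) and Csf1r (1.45, adjusted p = 0.0367) higher and Lyz2 lower (-2.64, adjusted p = 3.53e-05), while Adgre1 and Cd3e were at 0 in each library and Ptprc, which defines leukocytes, had 2 counts in 1 Ctrl library and 0 in the others. The call of Csf1r was lost under DESeq2 (adjusted p = 0.0567) and without Ctrl replicate 2 or 3 or either Confine library (adjusted p 0.0517 to 0.314). The 6 epithelial markers summed to at most 0.675, with Epcam and Krt18 at 0, and the 5 endothelial markers to 0.595 to 1.36 in Ctrl and 2.43 to 2.70 in Confine, where Vwf alone made up 2.43 and 2.54 and was higher (2.64, adjusted p = 0.000320). The other 4 endothelial markers were too low to be tested, with at most 11 counts in a Ctrl library and at most 3 in a Confine library. In bulk RNA, fewer cells of a type and less RNA per cell cannot be told apart.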

How the data were processed

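RNA-seq libraries of MEFs (3 Ctrl and 3 Confine columns) were analysed from the table of raw read counts per gene that the authors deposited, without normalization. Per the labels, polyadenylated RNA was selected and the strand made with dUTP was removed. The submitters' processing notes name Trim Galore 0.6.10, HISAT2 2.1.0, SAMtools 1.5, featureCounts and mm10, and the annotation and strand setting are not given in the sources used here. Of 55335 gene identifiers, 54587 matched GENCODE M21 (GRCm38) including the version and 55154 by the bare identifier.

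The identical Confine columns were counted once. Genes were filtered by filterByExpr, scaled by TMM (factors 1.04, 1.08 and 1.06 in Ctrl, 0.910 and 0.924 in Confine) and compared by the two-sided quasi-likelihood test (edgeR 4.0.16, R 4.3.3; residual degrees of freedom 3, median prior degrees of freedom 14.8), with Benjamini-Hochberg adjustment over 15881 genes. The standard error is the log2 fold change over the root of the F statistic, and intervals are 95%. Levels per kb use merged exon length. The method was tested on simulated data with 200 changed genes, fewer than the 3654 called here. It recovered 54.6% of log2 changes of 1 and 92.7% of changes of 2, in either direction. Of its calls, 5.33% were false. A gene without a call can thus have a change that was missed. Alternatives were DESeq2 1.42.0, limma-voom (limma 3.58.1), other scalings and filters, a replicate block and each library left out in turn. The Kdm6b share with another length was added after seeing the data. All 10 members were named, and of the other lists at most the 4 called genes with the smallest adjusted p in each direction, with markers at 0. The members and lists were chosen with earlier results of these data known. Other experiments of the study were not analysed here. Some genes of the lists are not reported here.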

Additional observations from a re-analysis of the deposited data

How the results depend on the processing

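The 5 upregulated members kept their calls under all 14 alternatives fitted across genes, with log2 fold changes of 1.61 to 1.89 for Kdm4b, 1.39 to 1.74 for Kdm6b, 1.38 to 1.76 for Kdm5b, 1.26 to 1.55 for Kdm3a and 0.61 to 0.88 for Kdm2a. With the log2 cutoff of 1.5 there were 3 upregulated members, and 777 genes higher and 494 lower in place of 2035 and 1619. The number of downregulated members was 1 (Kdm4a) in 3 settings: library size alone (-0.77, adjusted p = 0.0141), the identical columns counted as 2 samples (-0.67, adjusted p = 0.0182) and the replicate block with the repeated library as number 1 (-0.53, adjusted p = 0.0332). Over all 14 alternatives its adjusted p ran from 0.0141 to 0.512. Genes lower in Confine numbered 2805 with library size alone, where 34.0% of called genes were higher against 55.7% with TMM, and 2456 with the identical columns as 2 samples. Kdm6a, near 0, changed sign with limma-voom (0.016) and that replicate block (0.19), and ran from -0.10 to 0.19 when libraries were left out, above 0 without Ctrl replicate 2 or Confine 1/2.

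Leaving out 1 library gave 1196 to 2411 genes higher and 850 to 2015 lower. The lowest counts came without a Confine library, 1406 and 850 without Confine 1/2 and 1196 and 858 without Confine replicate 3, and there the lone library is assumed to vary like Ctrl. The deviations of same-numbered libraries correlated at -0.083 and -0.0075 with the repeated library as number 2 and at 0.094 and -0.0075 as number 1, so the numbers were not shown to pair the samples. The replicate block gave 1448 genes higher and 1080 lower with the repeated library as number 2, and 2640 and 2293 as number 1, with 1 residual degree of freedom and 5 members higher in both. With the repeated library as number 2 the block ended the calls of Kdm5a (adjusted p = 0.103), Kdm5c (0.151), Hspbap1 (0.157) and Csf1r (0.0621) and left Kdm4b alone above the cutoff of 1.5, and as number 1 it called Egln2 and 1 of the 4 PRC2 genes as well, and 4 members passed that cutoff. The paralog ratios cannot pass the threshold with 3 against 2 libraries, and they kept their direction in all alternatives.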

Other observations

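Genes that work with the demethylases or supply their cofactor were counted as well. Of 7 genes of the Polycomb complex that KDM2B brings to CpG islands, 1 was upregulated, Bcorl1, with 344, 282 and 148 counts in Ctrl and 479 and 527 in Confine (log2 fold change 0.94, 95% interval 0.42 to 1.47, adjusted p = 0.00920 by edgeR), a call lost without Confine replicate 3 (adjusted p = 0.165). The other 6 were not called, with log2 fold changes down to -0.34 for Skp1. Of 7 genes of the complex that holds KDM6A, 6 were tested and none was called by edgeR or DESeq2, with log2 fold changes from -0.49 to 0.08. At an unadjusted p under 0.05, 2 of them were lower by edgeR, and without Ctrl replicate 3, 1 was called lower. With libraries scaled by size alone, 3 of these 6 were called lower.

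Idh1, the cytosolic isocitrate dehydrogenase that makes 2-oxoglutarate, had a log2 fold change of -0.68 (adjusted p = 0.0147), and its call was lost without Confine 1/2 (adjusted p = 0.0606) or Confine replicate 3 (adjusted p = 0.181). Egln1, an oxygen-dependent prolyl hydroxylase of HIF that belongs to the wider enzyme class, had 861, 1058 and 619 counts in Ctrl and 6299 and 7687 in Confine, a log2 fold change of 3.02 (adjusted p = 1.25e-08). Egln2, named after its values were seen, had 5986, 3773 and 4469 counts in Ctrl and 3872 and 3298 in Confine, with lower normalized CPM in both Confine libraries and no call (log2 fold change -0.46, adjusted p = 0.100). It was called lower with library size alone, with the repeated column entered as 2 samples and without Ctrl replicate 2. Egln3 had 0 counts in each Ctrl library and 1 and 2 in Confine.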
